A study of Homo sapiens with 13 samples.

Results

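BACH1-high and BACH1-zero cancer cells were compared within xenograft tumours of a human breast cancer line. BACH1 levels (CPM, counts per 1000000 counts of a cell) were ranked among the cells of each tumour that had at least 2000 detected genes. The highest 25% formed the BACH1-high class and the cells with 0 BACH1 counts formed the BACH1-zero class. The 2 classes held 368 and 396 cells, which together were 764 of the 1569 cells measured. Of the other cells, 718 had a BACH1 count below the highest 25% and are called intermediate, and 87 had too few detected genes and were left out.

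The cells came from tumours grown from BM1, cells derived from MDA-MB-231, an established breast cancer line, that home to bone. Athymic nude mice received 1000000 cells each in a mammary fat pad. Tumours were taken after 3 weeks, dissociated, and after mouse cells and dead cells had been removed single cells were captured on a Fluidigm C1 instrument. CTRL tumours carried the vector control (BM1-VC) and RKIP tumours carried the RKIP construct BM1-RKIP-S153E, both in BM1 derivatives made earlier from the same parent, and there were 3 of each. CTRL and RKIP tumours numbered 1, 2 and 3 here are told apart by the endings of the cell names, and the numbers are arbitrary. Each tumour is 1 replicate, and each was 1 mouse tumour with 1 CTRL and 1 RKIP tumour processed per experiment. Athymic nude mice lack most T cells, so the cells grew in a host without T-cell immunity.

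BACH1 is a transcription factor that pairs with small Maf proteins and represses genes of heme breakdown, iron storage and antioxidant defence, and heme binding releases it from DNA. NRF2, encoded by NFE2L2, activates many of the same genes from the same DNA motif once KEAP1 no longer marks it for degradation. In breast cancer BACH1 is known for promoting invasion and bone metastasis, where RKIP, an inhibitor of the RAF-MEK-ERK cascade, lowers BACH1 through the microRNA let-7. MMP1 and CXCR4 are known as targets that BACH1 activates in this setting.

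The classes were defined by BACH1 itself, so its levels are given only as a description. The median BACH1 count of a BACH1-high cell was 79, 22 and 28 in CTRL tumours 1, 2 and 3 and 35, 15.5 and 23 in RKIP tumours 1, 2 and 3. The smallest count in any BACH1-high cell was 4. The last cell inside the class had a BACH1 CPM of 94.0 in RKIP 1 and of 152.0 to 187.0 in the other 5 tumours, and the first cell outside it had 93.8 in RKIP 1 and 151.6 to 172.0 in the others. BACH1-high cells held 66.9% to 94.2% of all BACH1 counts of their tumour. BACH1-zero cells were more frequent in the tumours numbered 1, at 42.5% of CTRL 1 and 44.9% of RKIP 1 against 15.97% to 20.9% in the other 4 tumours. BACH1 CPM over all cells of a tumour was 241.7 in CTRL 1 and 116.2 to 147.9 in the other 5.

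Both classes carried the markers of the line in every tumour. Vimentin (VIM) and galectin 1 (LGALS1) were counted in 100% of BACH1-zero and of BACH1-high cells. The hyaluronan receptor CD44 was counted in 90.5% to 96.5% of BACH1-zero cells and 95.1% to 100% of BACH1-high cells. The keratin KRT18 had a median of 467.5 CPM in BACH1-zero and 365.4 CPM in BACH1-high cells. It was counted in 76.4% to 94.7% of BACH1-zero and 81.8% to 98.3% of BACH1-high cells. The keratin KRT8 was counted in 63.6% to 86.0% and 73.8% to 88.1%, and the EGF receptor gene EGFR in 63.8% to 95.7% and 65.5% to 98.3%. Of the markers of other cell types the table held 2 of 14 leukocyte, 2 of 9 fibroblast, 4 of 8 endothelial, 1 of 8 muscle and 0 of 6 adipocyte markers. The summed endothelial markers ran from 29.7 to 68.2 CPM in BACH1-zero and from 22.9 to 77.9 CPM in BACH1-high cells. The summed leukocyte markers ran from 58.2 to 110.0 CPM and from 61.3 to 197 CPM, and LAPTM5 made up 58.1 to 107 CPM and 61.3 to 192 CPM of them. Their part in the results was not tested. No cell name was shared between CTRL and RKIP tumours, but their cells carry different chip columns in their names, so the names cannot test mixing.

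The depth of the cells differed between the classes in every tumour, and all results below are given with that difference in view. The median total count of a BACH1-zero cell was 86352, 36412.5 and 50461 in CTRL 1, 2 and 3 and 74638.5, 39762 and 48671 in RKIP 1, 2 and 3. In BACH1-high cells it was 166093, 67858 and 98270 in CTRL tumours and 113969, 59695 and 77918 in RKIP tumours. BACH1-high cells thus had 1.72 times the counts of BACH1-zero cells (1.501 to 1.95 times over tumours, higher in 6 of 6, exact two-sided sign-flip permutation p = 0.0312, the smallest that 6 tumours allow). They also had more detected genes, 3432 to 5156 against 2966 to 3977 by tumour medians, a ratio of 1.26 (1.13 to 1.43, 6 of 6, exact permutation p = 0.0312). Total counts enter the rule that set the classes, so these p-values are no independent support for a difference between them.

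The rule itself ties BACH1 to depth, because 1 count in a BACH1-zero cell of median depth would have been worth 11.6 to 27.5 CPM. When each cell was thinned at random to 20000 counts, with shallower cells left out (7 BACH1-high and 22 BACH1-zero cells), the ratio of detected genes was 1.08 (1.02 to 1.18, 6 of 6 tumours, exact permutation p = 0.0312). The gap in detected genes was smaller at equal depth and had the same direction in every tumour. When the classes were redrawn from the thinned BACH1 counts, the ratio of total counts before thinning was 1.12 (0.936 to 1.41, higher in 4 of 6 tumours, exact permutation p = 0.188). The CTRL tumours had ratios of total counts from 1.86 to 1.95 and the RKIP tumours from 1.501 to 1.60, so the groups did not overlap, and that difference was not tested. Intermediate cells in RKIP 1 and RKIP 3 were deeper than the BACH1-high cells, with medians of 140140 and 92586 counts.

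**Figure D1:**
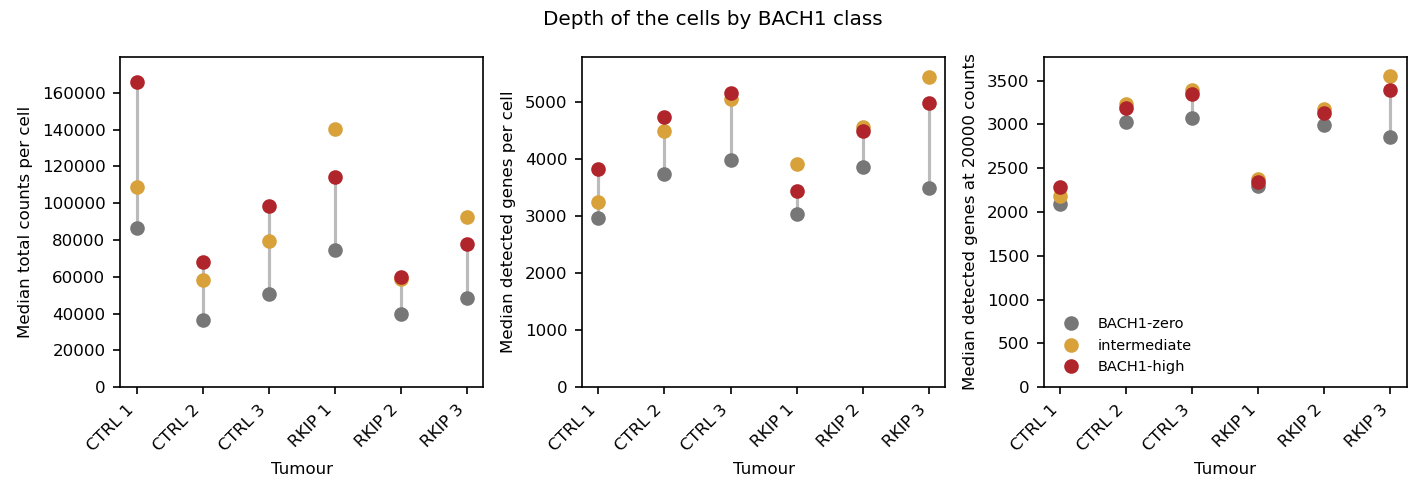
Median total counts per cell, median detected genes per cell, and median detected genes after thinning to 20000 counts, by tumour (x axis) and BACH1 class (colour, intermediate cells included), with a grey line joining the BACH1-zero and BACH1-high medians. The BACH1-high point lies above the BACH1-zero point in all 6 tumours in each panel, by 1.72, 1.26 and 1.08 times on average.

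The main comparison summed the raw counts of each class in each tumour (2376979 to 12040082 counts per library over the tested genes) and tested all other genes with edgeR's quasi-likelihood test, with the tumour as block. No gene passed an adjusted p of 0.05 among 11653 genes tested, and the share of genes called was 0% in each direction. At an unadjusted p under 0.05, 325 genes were higher in BACH1-high cells (2.79%) and 296 were lower (2.54%). The median log2 difference over all genes was -0.00. Levels and counts of tumours below are plain CPM of the sums, without the scaling (TMM) that the fit adds, unless scaled values are named. Upper-quartile scaling also called 0 genes and gave 381 higher and 220 lower at an unadjusted p under 0.05. With DESeq2 on the same sums, 20 genes were higher (0.172%) and 17 lower (0.146%).

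Single cells weighed heavily in the sums. Within a class and tumour, 1 cell gave a median of 23.7% to 38.2% of a gene's summed count. The median standard error of a log2 difference was 0.49 over all genes and 0.14 over the 668 genes with a mean log2 CPM of 8 or more.

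More genes were called in a fit that gave each cell equal weight and also took logs within each cell. The parts of weight and scale in this were not tested. With limma on the mean over cells of log2(CPM + 10), 141 genes were higher in BACH1-high cells (1.21%) and 0 were lower (0%), and 42 genes were lower at an unadjusted p under 0.05. On that scale 81.2% of all genes had a positive difference, with a median of 0.09.

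The number of equal-weight calls differed between treatments of depth. After thinning to 20000 counts 12 genes were higher (0.103%) and 0 lower, and when the classes were redrawn from the thinned BACH1 counts 0 genes were called in either direction, with 987 higher and 164 lower at an unadjusted p under 0.05. Among 255 pairs of BACH1-high and BACH1-zero cells matched on total counts within a tumour 0 genes were called, with 1237 higher and 96 lower unadjusted. Matched BACH1-high cells still had 1.11 times the detected genes (1.05 to 1.24). In 225 pairs matched on both total counts and detected genes the median difference was 0.01, with 1 gene higher (0.00858%) and 5 genes lower (0.0429%). A pseudocount of 1 gave 1137 higher and 2 lower, and a pseudocount of 100 gave 0 and 0.

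The median log2 difference of these 141 genes was 0.64 with equal weights, 0.44 on summed counts, 0.56 after thinning and 0.40 in pairs matched on counts and genes. They were chosen by the equal-weight fit on the same cells, so the later values are no independent support. The count of calls rested on single tumours. It was 0 without CTRL 2 and 0 without CTRL 3, 1 without RKIP 2 and 3 without RKIP 3, against 98 without CTRL 1, 164 without RKIP 1 and 153 without both tumours numbered 1.

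**Figure D2:**
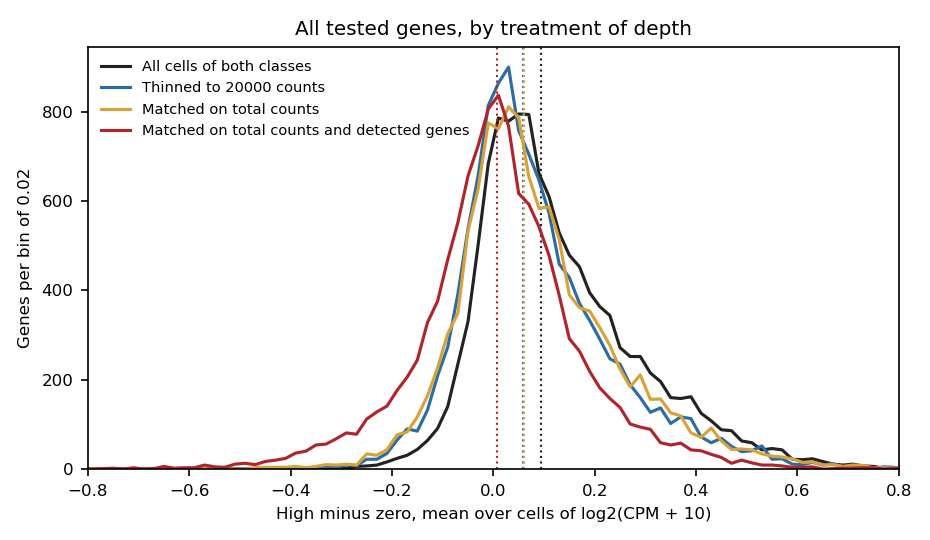
Distribution over the 11653 tested genes of the difference between BACH1-high and BACH1-zero cells in the mean over cells of log2(CPM + 10), as genes per bin of 0.02, for all cells, thinned cells and matched cells. Dotted lines mark the medians, which move from 0.09 with all cells to 0.01 in pairs matched on total counts and detected genes.

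The 12 genes called after thinning, chosen here after their values were seen, included secreted and extracellular proteins (the hormone STC1, the activin inhibitor FST, the protease ADAMTS1, the collagen crosslinker LOX and the chemokine CCL26) and chaperones of the endoplasmic reticulum (PDIA3 and DNAJB9). Also among them were the EGF receptor inhibitor ERRFI1, MAGED2, MORF4L2 and the aspartyl-tRNA synthetase DARS. STC1, stanniocalcin 1, was at 193, 330.8 and 357 CPM (lowest, median and highest of the 6 tumours) in BACH1-zero cells and at 473, 489.7 and 605 CPM in BACH1-high cells. The classes did not overlap for STC1. Its log2 difference was 0.71 (SE 0.15) on summed counts (edgeR adjusted p = 0.924, DESeq2 adjusted p = 0.0270) and 0.93 after thinning (SE 0.20, limma adjusted p = 0.0358). In matched pairs it was 0.86 (SE 0.21, limma adjusted p = 0.127).

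MAGED2, an X-linked gene of the MAGE family, was at 64.3, 110.6 and 254 CPM in BACH1-zero and 173, 252.4 and 429 CPM in BACH1-high cells, higher in 5 of 6 tumours. After thinning, MAGED2 had a count in a median of 52.5% of BACH1-zero and 70.0% of BACH1-high cells, and the share was higher in 6 of 6 tumours. ADAMTS1, which lies on chromosome 21 with BACH1, was at 295, 423.2 and 701 CPM in BACH1-zero and 479, 599.2 and 831 CPM in BACH1-high cells. It was higher in each tumour, although the ranges of the classes overlapped between tumours.

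Genes of antioxidant defence and of heme and iron metabolism that BACH1 is known to repress were not lower as a group in BACH1-high cells. Of 27 genes fixed as this list, 25 were in the table and 23 were tested, with 0 called (0% over all genes). Their median log2 difference on summed counts was 0.31, against -0.00 over all genes, with 15 of 23 positive, 4 higher and 1 lower at an unadjusted p under 0.05, against 2.79% higher and 2.54% lower over all genes. Their summed level was 6649, 7122 and 8777 CPM in BACH1-zero cells and 7690, 9386 and 11068 CPM in BACH1-high cells. BACH1-high cells were above the BACH1-zero cells in 6 of 6 tumours, also in matched pairs (6 of 6) and after thinning (6 of 6). In matched pairs the list median was 0.08 with limma, and 0.00 to 0.02 with other orders of pairing.

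FTL, the ferritin light chain that stores iron, made up most of that sum. It was at 5256, 5586 and 7219 CPM in BACH1-zero and 5970, 7706 and 9254 CPM in BACH1-high cells, with overlapping ranges. It was higher in each tumour by plain CPM and in 5 of 6 by the scaled values of the fit, where RKIP 1 had -0.0006 on the log2 scale. The log2 difference of FTL was 0.32 (SE 0.08, edgeR adjusted p = 0.924) on summed counts and 0.30 (SE 0.10, limma adjusted p = 0.433) in matched pairs.

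SQSTM1, the autophagy receptor p62, was at 91.7, 140.7 and 212 CPM in BACH1-zero and 158, 196.8 and 448 CPM in BACH1-high cells, a log2 difference of 0.58 (SE 0.17). TXNRD1, thioredoxin reductase 1, was at 115, 167.8 and 266 CPM and at 179, 238.7 and 352 CPM, a difference of 0.44 (SE 0.14). Both were higher in 6 of 6 tumours and neither passed the adjusted test (edgeR adjusted p = 0.924 for each). AKR1C1, an aldo-keto reductase, was counted in 23 BACH1-zero and 49 BACH1-high cells. Its log2 difference of 2.55 (SE 0.95) rested on few cells, since 1 cell held 25.3% to 91.7% of the count in a BACH1-high class. SLC48A1, a heme transporter, had the lower value of the list, -1.23 (SE 0.55, edgeR adjusted p = 0.924).

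HMOX1, heme oxygenase 1 and the best known gene that BACH1 represses, was too low to be tested. It was at 0 to 6.35 CPM in BACH1-zero and 0.242 to 1.24 CPM in BACH1-high cells, higher in BACH1-high cells in 2 of 6 tumours. FTH1, the ferritin heavy chain, had a log2 difference of -0.20 (SE 0.38), GCLM, a subunit of glutathione synthesis, 0.47 (SE 0.41), ME1, the cytosolic malic enzyme, -1.09 (SE 1.18), and NQO1, a quinone reductase, 0.60 (SE 0.36). None of these 4 differences exceeded 2 standard errors.

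The DNA letters to which BACH1 and NRF2 bind with Maf proteins are shown for 3 of the 6 genes of this list with a match, as examples. Promoter windows of 300 bases, from 250 before to 50 after each start, came from RefSeq (GRCh38.p14) and covered 20 of the 27 genes with 26 windows. The core of the antioxidant response element, TGACNNNGC on either strand, was in 7 of these windows (6 genes, 26.9% of windows) and in 13.3% of all 35116 windows. A longer stretch of the Maf recognition element with an AP-1 core was in 0 of the 26 windows and 0.154% of all windows, and the overlapping AP-1 core TGAGTCA in 3 windows (11.5%) and 4.95% of all. Capitals mark the match of TGACNNNGC or its reverse complement, and each line is read in the gene's direction:
GCLM: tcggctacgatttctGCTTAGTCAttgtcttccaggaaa
ME1: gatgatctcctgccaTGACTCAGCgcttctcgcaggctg
TXNRD1, upstream start: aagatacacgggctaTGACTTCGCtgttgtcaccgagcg
TXNRD1, downstream start: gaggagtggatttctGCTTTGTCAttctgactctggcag
The GCLM window is chr1:93909441-93909479 on the minus strand, with the match starting 34 bases before the start site. The ME1 window is chr6:83431165-83431203 on the minus strand, with the match 137 bases before the start. The TXNRD1 windows are chr12:104215665-104215703 and chr12:104286915-104286953 on the plus strand, with matches 99 and 102 bases before their starts. Of these 3 genes TXNRD1 had the higher value in BACH1-high cells in 6 of 6 tumours, and the values of GCLM and ME1 were within 2 standard errors of 0. A match of these letters does not show binding.

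Among the partners of BACH1 and the proteins that degrade it no gene passed the edgeR test on summed counts. Of 15 genes in this list 14 were tested, 0 were called, 0 reached an unadjusted p under 0.05, and the median log2 difference was -0.07. With equal weights the median was 0.19, with 11 of 14 positive (81.2% over all genes), 7 higher at an unadjusted p under 0.05 (2379 of 11653 over all genes) and 0 called. NFE2L2 was at 53.6, 100.2 and 117 CPM in BACH1-zero and at 74.2, 89.6 and 144 CPM in BACH1-high cells, higher in 3 of 6 tumours (log2 difference 0.05, SE 0.26). Its difference was 0.49 with equal weights (limma adjusted p = 0.105), 0.63 in pairs matched on counts (limma adjusted p = 0.205) and 0.35 in pairs matched on counts and genes (limma adjusted p = 0.684). With a pseudocount of 1 NFE2L2 was called higher (0.96, limma adjusted p = 0.0275), as were 1137 of all 11653 genes in that setting. Among the small Maf genes, MAFG had -0.55 (SE 0.44) and MAFK 1.10 (SE 1.38). KEAP1, the adaptor that marks NRF2 for degradation, had -0.33 (SE 0.39), and FBXO22, a ubiquitin ligase adaptor that targets BACH1, had -0.74 (SE 0.50).

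Among the genes of the RKIP, let-7 and BACH1 axis, the collagenase gene MMP1 was higher in BACH1-high cells in every tumour. MMP1 was at 0.582, 5.42 and 14.9 CPM in BACH1-zero cells and 18.9, 30.9 and 52.1 CPM in BACH1-high cells, and the classes did not overlap. Its log2 difference was 2.64 (SE 0.60, edgeR adjusted p = 0.924, DESeq2 adjusted p = 5.15e-04), and 0.35 with equal weights (limma adjusted p = 0.0238). In matched pairs it was 0.32 (SE 0.09, limma adjusted p = 0.318). MMP1 was a rare transcript, counted in 29 of 396 BACH1-zero cells (7.32%) and 63 of 368 BACH1-high cells (17.1%). After thinning, it was counted in 0% to 8.33% of BACH1-zero cells and 3.64% to 13.6% of BACH1-high cells by tumour, higher in 6 of 6.

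A single cell held 36.1% to 96.2% of the MMP1 count of a BACH1-high class. In the intermediate cells MMP1 ran from 3.19 to 561 CPM, and in RKIP 1, where it was highest, 1 cell held 99.4% of it. The BACH1-high cells of 4 tumours were above their intermediate cells. MMP1 was one of 10 tested genes of the axis list of 17. Of those 10, 0 were called, 1 was higher and 2 were lower at an unadjusted p under 0.05, against 2.79% higher and 2.54% lower over all genes, and the median was 0.14.

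HMGA2 and HMGA1, both known let-7 targets, had lower values in most BACH1-high classes. HMGA2, an embryonic chromatin protein, was at 75.2, 103.8 and 158 CPM in BACH1-zero and 50.3, 59.5 and 82.4 CPM in BACH1-high cells, lower in 6 of 6 tumours with overlapping ranges (log2 difference -0.85, SE 0.23, edgeR adjusted p = 0.924). With equal weights its difference was 0.01 (limma adjusted p = 0.977), and 1 cell held 15.3% to 41.5% of the count in a BACH1-zero class. HMGA1, its paralog, was at 900, 1069 and 1347 CPM and at 790, 940.6 and 1177 CPM, lower in 5 of 6 tumours by plain CPM and in 6 of 6 by scaled values (-0.24, SE 0.10, edgeR adjusted p = 0.924). CXCR4, the chemokine receptor, was at a median of 8.89 CPM in BACH1-zero and 10.5 CPM in BACH1-high cells (0.38, SE 1.01). LIN28B was not in the table.

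Human PEBP1, which encodes RKIP, was at 220, 288.3 and 350 CPM in BACH1-zero and 240, 310.1 and 359 CPM in BACH1-high cells (log2 difference 0.06, SE 0.14). KMT5C, a histone methyltransferase, was at medians of 1.44 and 1.80 CPM (0.73, SE 1.47). The RKIP transgene, counted separately as rat Pebp1, was lower in BACH1-high cells by summed counts in all 3 RKIP tumours. It was at 20.03, 401 and 287 CPM in BACH1-zero cells of RKIP 1, 2 and 3 and at 2.91, 82.9 and 99.9 CPM in BACH1-high cells (log2 difference over all tumours -2.06, SE 0.40, edgeR adjusted p = 0.924, DESeq2 adjusted p = 0.00695).

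In CTRL tumours it was at 0 to 0.33 CPM. A single cell per RKIP tumour held 54.5%, 93.0% and 77.3% of the BACH1-zero counts. Without the cell holding most transgene counts in each class the levels were 9.17 against 2.14, 28.7 against 65.2 and 69.1 against 66.4 CPM, BACH1-zero cells first. At 20000 counts the transgene was counted in 4.55%, 18.8% and 30.4% of BACH1-zero cells and 1.64%, 28.4% and 33.3% of BACH1-high cells. The exact 95% binomial intervals overlapped in each tumour, for instance 8.95% to 32.6% against 18.01% to 40.7% in RKIP 2, and they cover counting error only.

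**Figure D3:**
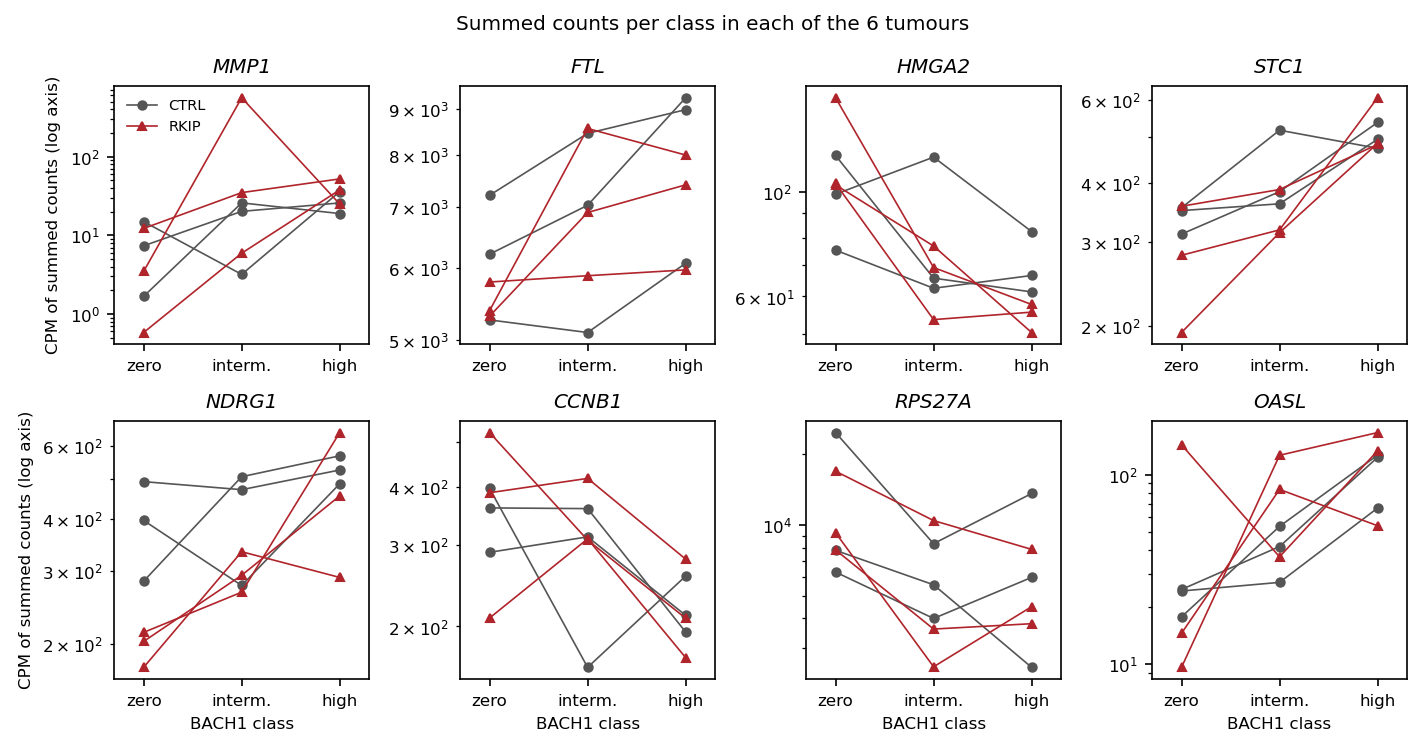
CPM of the counts summed over the cells of a class (log axis) for 8 genes, by BACH1 class (zero, intermediate, high), with 1 line per tumour (circles CTRL, triangles RKIP). By these plain CPM values MMP1, FTL, STC1 and NDRG1 are higher in BACH1-high than in BACH1-zero cells in 6 of 6 tumours (FTL and NDRG1 in 5 of 6 by the scaled values of the fit), HMGA2, CCNB1 and RPS27A lower in 6 of 6, and OASL higher in 5 of 6, with no gene past the edgeR threshold.

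Genes induced by low oxygen had higher values in BACH1-high cells. All 20 genes of the hypoxia list were tested, 0 were called on summed counts, and 6 were higher and 0 lower at an unadjusted p under 0.05, against 2.79% higher over all genes. The median was 0.41. The summed list was at 2444, 2846 and 3073 CPM in BACH1-zero cells and 2873, 3431 and 3780 CPM in BACH1-high cells, higher in 6 of 6 tumours. After thinning it was higher in 5 of 6 and in matched pairs in 5 of 6.

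NDRG1, a stress-responsive gene of the hypoxia program, was at 176, 248.7 and 492 CPM in BACH1-zero and 290, 505.9 and 646 CPM in BACH1-high cells, with overlapping ranges. It was higher in 6 of 6 tumours by plain CPM and in 5 of 6 by the scaled values of the fit, where CTRL 2 had -0.0052 on the log2 scale. Its log2 difference was 0.76 (SE 0.19, edgeR adjusted p = 0.924) on summed counts and 0.94 (SE 0.17, limma adjusted p = 0.0387) in matched pairs, where it was the only gene called higher. BNIP3, a mitophagy receptor, was at 239, 329.7 and 456 CPM and at 312, 405.7 and 659 CPM (0.33, SE 0.13). ANGPTL4, a secreted inhibitor of lipoprotein lipase, had 0.57 (SE 0.19) and LOX 1.22 (SE 0.44). In matched pairs 20 of 20 members had a positive difference, 8 of them at an unadjusted p under 0.05 against 4.32% over all genes, and the median was 0.32 (0.26 and 0.34 with other orders of pairing, where 19 of 20 were positive and NDRG1 was not called). Without CTRL 2, RKIP 1, RKIP 2 or RKIP 3, 0 members were called.

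Genes of G2 and M phase, which cells express while they prepare for and pass through division, had lower values in BACH1-high cells. On summed counts 0 of 30 were called and 27 were negative, with 5 lower and 0 higher at an unadjusted p under 0.05, against 2.54% lower over all genes, and the median was -0.27. CCNB1, cyclin B1 that drives entry into mitosis, was at 209, 374.1 and 523 CPM in BACH1-zero and 171, 209.9 and 279 CPM in BACH1-high cells, lower in 6 of 6 tumours (-0.72, SE 0.16, edgeR adjusted p = 0.924, DESeq2 adjusted p = 0.0312). CCNA2, cyclin A2, was at 18.9, 47.7 and 72.7 CPM and 12.7, 16.7 and 33.1 CPM, also lower in 6 of 6 (-1.27, SE 0.37). BIRC5, survivin, had -0.59 (SE 0.25). The summed list was lower in 4 of 6 tumours.

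Between cells of like depth and like numbers of detected genes the G2 and M genes were called in part with limma on equal weights, and not with edgeR on sums. In the pairs matched on both, a comparison added after the data were seen, 30 of 30 members were lower in BACH1-high cells with a median of -0.50, 23 of them at an unadjusted p under 0.05 against 3.4% over all genes. The called members were the proliferation marker MKI67 (-1.16, SE 0.20, limma adjusted p = 0.0160), topoisomerase TOP2A (-1.20, SE 0.20, limma adjusted p = 0.0160) and BIRC5 (-1.04, SE 0.20, limma adjusted p = 0.0387). The other genes called lower were PTTG1, securin (-0.98), and HMGN2, a nucleosome-binding protein (-0.93).

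The summed G2 and M list in matched cells was at 6847, 5491 and 6171 CPM in BACH1-zero cells of CTRL 1, 2 and 3 and at 5796, 5062 and 2620 CPM in BACH1-high cells. In RKIP 1, 2 and 3 it was at 6186, 4882 and 8693 CPM in BACH1-zero and 6336, 4095 and 2497 CPM in BACH1-high cells. The largest gaps were in CTRL 3 and RKIP 3, and RKIP 1 showed none. Other orders of pairing gave medians of -0.45 and -0.43 with all 30 lower, and called 1 and 2 members. Leaving out 1 tumour gave medians of -0.60 to -0.37. Without CTRL 2, CTRL 3 or RKIP 3, 0 members were called, and without RKIP 3 1 member had a positive difference.

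S phase genes, which serve DNA replication, had a matched median of -0.09, 20 of 25 lower, 6 of them at an unadjusted p under 0.05 (3.4% over all genes) and 0 called. Total counts and detected genes of a cell differ between the classes when all cells are used, and with all cells and equal weights the G2 and M median was -0.12 and the S phase median 0.02. Their part in the result was not tested.

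**Figure D4:**
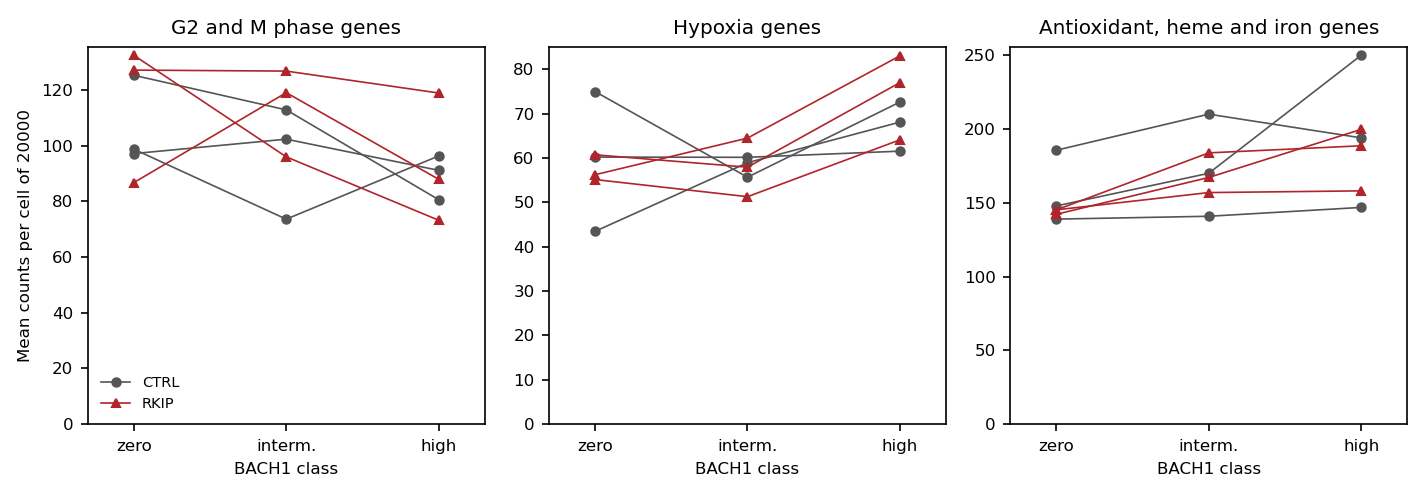
Mean counts per cell of 3 gene lists after each cell was thinned to 20000 counts, by BACH1 class (zero, intermediate, high), with 1 line per tumour (circles CTRL, triangles RKIP). From BACH1-zero to BACH1-high, G2 and M phase genes are lower in 5 of 6 tumours, hypoxia genes higher in 5 of 6, and antioxidant, heme and iron genes higher in 6 of 6.

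Interferon-stimulated genes differed between tumours and between treatments of depth. Of 28 genes 24 were tested and 0 called, with 5 higher and 0 lower at an unadjusted p under 0.05, against 2.79% higher and 2.54% lower over all genes, and a median of 0.31. Their sum was higher in BACH1-high cells in 5 of 6 tumours with all cells, and in pairs matched on counts and genes higher in 3 and lower in 3, with a limma median of 0.07. OASL was at 9.60, 21.0 and 144 CPM in BACH1-zero and 53.7, 125.2 and 167 CPM in BACH1-high cells, higher in 5 of 6 tumours (2.03, SE 0.47, edgeR adjusted p = 0.924, DESeq2 adjusted p = 2.88e-04). IFIT1 had 2.76 (SE 0.67, DESeq2 adjusted p = 1.78e-04). RKIP 1 stood apart, with the highest values of OASL, IFIT1 and IFIT3 in its BACH1-zero cells.

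Without both tumours numbered 1, IFIT2 (3.00, SE 0.34) and IFIT3 (2.39, SE 0.29) were called higher (edgeR adjusted p = 0.0439 for each). With equal weights the differences were small, 0.28 for OASL, 0.17 for IFIT1 and 0.37 for IFIT3, and none was called. In the BACH1-high classes 1 cell held 21.4% to 52.3% of the OASL count and 38.8% to 90.4% of the IFIT1 count.

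Genes of the ribosome were mostly negative in the sums and, like most genes, positive with equal weights. Of 75 ribosomal protein genes 65 were negative on summed counts, 12 were lower and 0 higher at an unadjusted p under 0.05, against 2.79% higher and 2.54% lower over all genes, and the median was -0.12. With equal weights 62 of 75 were positive and the median was 0.06, against 81.2% positive and a median of 0.09 over all genes. RPS27A, which encodes ubiquitin fused to a ribosomal protein, was at 6303, 8554 and 24785 CPM in BACH1-zero and 2474, 5235 and 13630 CPM in BACH1-high cells, lower in 6 of 6 tumours (-1.01, SE 0.14). It had the smallest edgeR adjusted p of all genes, 0.117, shared with the zinc finger gene ZFP37 (-3.29, SE 0.47), named here after its values were seen.

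RPS27A passed the edgeR threshold without CTRL 3 (-1.19, adjusted p = 0.00194), in the RKIP tumours alone (-1.10, adjusted p = 0.0447) and with cells of at least 1000 detected genes (-1.08, adjusted p = 0.0262). In a BACH1-zero class 1 cell held 27.1% to 47.8% of its count. With equal weights RPS27A had -0.11 (limma adjusted p = 0.680). Reads of RPS27A can be shared with near-identical copies such as RPS27AP16 (-0.97, SE 0.22), so its value is uncertain. ZFP37 was counted in 28 BACH1-zero and 28 BACH1-high cells, with 1040 and 183 counts, and 1 cell held 48.7% to 98.9% of the count of a BACH1-zero class.

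The unfolded protein and integrated stress genes had a median of 0.24 over 17 genes, with 2 higher and 0 lower at an unadjusted p under 0.05, against 2.79% higher and 2.54% lower over all genes, and their summed level was higher in 6 of 6 tumours. HSPA5, the main chaperone of the endoplasmic reticulum, was at 922, 1214 and 1263 CPM in BACH1-zero and 1309, 1381 and 2121 CPM in BACH1-high cells, with no overlap (0.36, SE 0.14, edgeR adjusted p = 0.924). With equal weights HSPA5 (0.56) and HERPUD1 (0.67), a gene of protein degradation at the same organelle, were called (limma adjusted p = 0.0469 and 0.0384). In matched pairs neither was called.

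The bone metastasis genes, a set known from BM1 and its relatives and therefore not independent of this line, had a median of 0.36 over 11 genes and a higher sum in 6 of 6 tumours. On summed counts MMP1 and ADAMTS1 were higher and 0 lower at an unadjusted p under 0.05, against 2.79% and 2.54% over all genes. With equal weights MMP1, ADAMTS1 and FST were called, against 1.21% over all genes. In pairs matched on counts and genes the median was 0.10 and 0 were called. There 5 were higher and 1 lower unadjusted, against 4.32% and 3.4% over all genes. The mesenchymal and invasion genes had 0.16 over 28 genes with 0 at an unadjusted p under 0.05, and were higher in sum in 6 of 6 tumours by plain CPM and in 5 of 6 by scaled values. With equal weights all 28 were positive with a median of 0.28, against 81.2% positive and 0.09 over all genes. In that fit 15 were higher at an unadjusted p under 0.05 (2379 of 11653 over all genes). The matrix gene FN1 was called, against 1.21% called higher over all genes. After thinning 9 were higher at an unadjusted p under 0.05 (1380 of 11653 over all genes). In pairs matched on counts and genes 2 were higher unadjusted, against 4.32% over all genes, with a median of 0.11. Glycolysis genes had 0.09 over 21 with 3 higher and 0 lower unadjusted, among them LDHA, lactate dehydrogenase A (0.20, SE 0.09), while genes of oxidative phosphorylation had -0.02 over 46 with 0 higher and 1 lower. Over all genes 2.79% were higher and 2.54% lower unadjusted. With equal weights all 46 oxidative phosphorylation genes were positive, against 81.2% of all genes (medians 0.19 and 0.09). Of the 46, 9 were higher unadjusted, against 2379 of 11653 over all genes. In pairs matched on counts and genes 33 of 46 were negative (median -0.08, 5 lower unadjusted against 3.4% over all genes), and their sum was lower in 6 of 6 tumours. Outputs of ERK had -0.02 over 16 genes, led by the ERK phosphatase DUSP6 (0.30, SE 0.11).

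The neighbours of BACH1 on chromosome 21 had a median of 0.10 over 29 genes, with 2 higher (ADAMTS1 and MIS18A) and 1 lower (SCAF4) at an unadjusted p under 0.05, against 2.79% higher and 2.54% lower over all genes. Their summed level was higher in BACH1-high cells in 6 of 6 tumours, from 3467 to 4208 CPM in BACH1-zero and 3874 to 4669 CPM in BACH1-high cells. SOD1, superoxide dismutase, was at 432, 475.3 and 599 CPM and 498, 645.7 and 697 CPM, higher in each tumour by plain CPM and in 5 of 6 by scaled values (0.26, SE 0.12, edgeR adjusted p = 0.924).

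**Figure D5:**
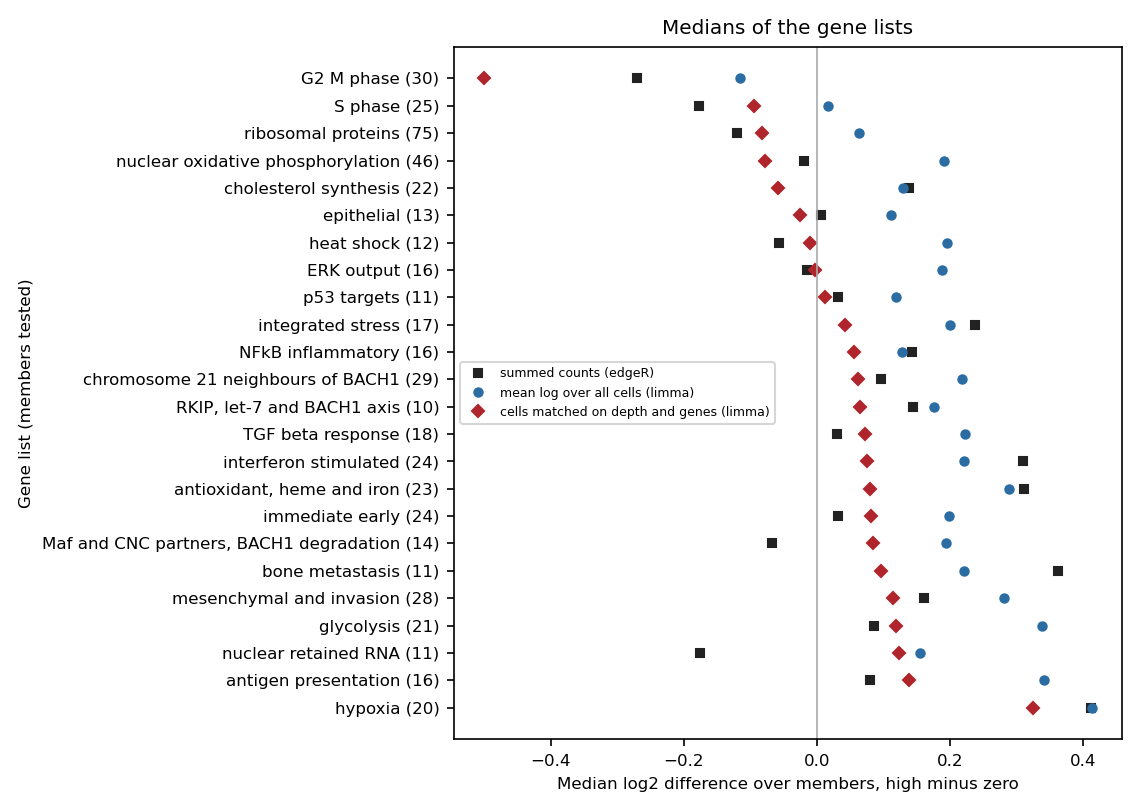
Median log2 difference between BACH1-high and BACH1-zero cells over the tested members of 24 gene lists, for summed counts, the mean log over all cells, and matched cells, with the number tested in brackets. The hypoxia list is highest in matched cells at 0.32 and the G2 and M phase list lowest at -0.50. With all cells and equal weights 23 of 24 lists lie above 0, as do 81.2% of all genes (median 0.09).

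No difference between CTRL and RKIP tumours in the class contrast passed the main test. The class-by-arm interaction called 0 of 11653 genes with edgeR, with 218 larger and 239 smaller in RKIP at an unadjusted p under 0.05, 0 with limma on equal weights, and 13 in each direction with DESeq2 (0.112% each). The median standard error of an interaction was 0.97 on the log2 scale. MMP1 had 2.03 in CTRL and 3.29 in RKIP tumours (interaction 1.27, SE 1.16), NDRG1 0.41 and 1.12 (0.72, SE 0.34), and CCNB1 -0.71 and -0.73 (-0.02, SE 0.32).

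The share of cells with 0 BACH1 counts was compared at 20000 counts per cell, since the classes were set within tumours. It was 54.1%, 33.1% and 35.8% in CTRL 1, 2 and 3 and 62.0%, 38.3% and 37.3% in RKIP 1, 2 and 3. The mean was 41.0% ± 11.4 (SD, n = 3) in CTRL and 45.9% ± 14.01 (SD, n = 3) in RKIP tumours, a difference of 4.88 percentage points (exact two-sided permutation p = 0.5, the smallest possible being 0.1). The 2 tumours numbered 1 were highest, and the arms overlapped. Within each name ending the RKIP tumour was above the CTRL tumour at 20000 counts. The exact 95% binomial intervals at that depth, which cover counting error only, were 47.3% to 60.8% in CTRL 1 and 55.6% to 68.1% in RKIP 1. At 40000 counts per cell the share was 51.4%, 23.8% and 26.2% in CTRL 1, 2 and 3. In RKIP 1, 2 and 3 it was 49.3%, 24.5% and 25.9%. The difference in means was then -0.60 percentage points (exact permutation p = 0.8), so its direction depended on the depth. BACH1 CPM was 166 ± 65.7 in CTRL and 129 ± 16.6 in RKIP tumours (SD, n = 3 each, exact permutation p = 0.5).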

How the data were processed

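Single-cell RNA of 6 xenograft tumours was used. The deposited single-cell table holds raw counts, whole numbers per gene and cell. Per the submitters' processing notes the tools were Trim Galore, STAR and featureCounts, and the builds hg38 and hg19 are named without their roles, so genes carry no coordinates. Whether molecular identifiers or strand were used is not given. The table held 15005 genes, each with a count in at least 20 cells, and 0 mitochondrially encoded genes, and 390 names were restored and chromosomes taken from GENCODE 29. Bulk tumours of the same series were not used here.

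Counts per tumour were 19468467 to 33922206. The name of a cell gave its arm and ending and so its tumour, no doublet caller was run, and a fit without the deepest 10% of cells was an alternative. Counts were summed per class and tumour with BACH1 removed, and tested with edgeR 4.0.16 (R 4.3.3; filterByExpr, TMM, robust quasi-likelihood) with tumour as block, because both classes came from the same tumour, and Benjamini-Hochberg adjustment at 0.05. Printed CPM are counts per 1000000 summed counts of a class, BACH1 left out, unscaled. limma 3.58.1 and DESeq2 1.42.0 served as alternatives, and the scripts were tested on simulated data. Thinning and pairing used seed 1. Pairs differed by at most 0.05 in log10 total counts, or by 0.1 in log10 total counts and 0.05 in log10 detected genes. Exact tests were two-sided over tumours. P-values measure the spread between these tumours, which all came from the 2 cell derivatives.

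The cells, gene lists and tests were chosen with earlier results of these data known. Named genes were the fixed genes of the BACH1 axis and up to 4 members with the smallest p of each list. Others are said to be chosen after their values were seen, as were SLC48A1, GCLM, ME1, NQO1, FTH1, KEAP1 and the members called by an alternative.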

Additional observations from a re-analysis of the deposited data

Results flagged for a closer look

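The BACH1 CPM of CTRL 1, 241.7 over all its cells, lay far from the other 5 tumours, which ran from 116.2 to 147.9. The gap to the nearest tumour was 0.748 of the whole range of the 6. This was 1 of 24 sets of 6 tumour values examined, and chance flags about 1 in 20. BACH1-zero cells were as frequent in RKIP 1 (44.9%) as in CTRL 1 (42.5%), while the level in RKIP 1 was 147.9 CPM.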

How the results depend on the processing

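All values below are log2 ratios of medians or counts of genes, and matched or thinned settings hold fewer cells. The depth difference (0.78) lost its call with at least 3000 detected genes (0.41), against all other cells (0.30), with redrawn classes (0.16) and in cells matched on counts (0.019) or counts and genes (0.054), where matching itself removes it. Detected genes (0.33) lost theirs against all other cells (0.090) and in cells matched on counts and genes (0.014). No call was possible in CTRL (depth 0.93, genes 0.36) or RKIP (0.63 and 0.30) tumours alone, where p cannot go below 0.25, without both tumours numbered 1 (0.78 and 0.36, smallest p 0.125) or without 1 tumour (0.74 to 0.82 and 0.30 to 0.36, smallest p 0.0625). Genes called higher numbered 20 with DESeq2, 2 with edgeR without the tumours numbered 1, 141 with equal weights, 1137 with a pseudocount of 1, 12 after thinning, 153 with equal weights without the tumours numbered 1, 1 in cells matched on counts and genes and 5 in those without the tumours numbered 1. Without 1 tumour they numbered 0 to 164 with equal weights (98 without CTRL 1, 164 without RKIP 1), 0 to 2 in matched cells and 0 with edgeR. Genes called lower numbered 17 with DESeq2, 1 in RKIP tumours alone, 1 with at least 1000 detected genes, 2 with a pseudocount of 1, 5 in cells matched on counts and genes, 1 and 4 with other orders of pairing and 6 without the tumours numbered 1, and 0 to 3 without 1 tumour. On summed counts of thinned or matched cells edgeR called 0 genes. The class-by-arm interaction called 26 genes with DESeq2. The cause of these changes was not tested. Without the replicate block (tumour as block) edgeR called 0 genes, with 307 higher and 356 lower at an unadjusted p under 0.05. For the share of BACH1-zero cells between arms, the replicate block by name ending gave 4.88 percentage points with an exact sign-flip p of 0.25, the smallest possible. Of 4625 values of 104 named genes under alternatives, 4074 kept direction and side of the threshold, 442 had the other sign without a call, 109 passed the threshold in the same direction and 0 were called in the other direction. The median SE on summed counts was 0.49 over all genes and 0.14 in the 668 most abundant, and the cause of that gap was not tested.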
